A study of Mus musculus with 16 samples.

Results

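In CUT&Tag data from mouse submandibular gland, 12221 of the 30975 summits of Bmal1 replicate 1 on chromosomes 1 to 19 and X (39.5%) were found in the 3 longest of 6 summit lists and in none of the 3 shorter ones. They were selected on the deposited summit positions: each had a summit within 200 bp in both Nr1d1 replicate 2 and Dbp replicate 1, and none within 200 bp in Bmal1 replicate 2, Nr1d1 replicate 1 or Dbp replicate 2. The 6 lists held 158397 summits in all, and the 12221 are called the class here. The question was whether these summits lie at promoters of genes expressed in the gland.

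CUT&Tag uses an antibody to bring a transposase to the chromatin around a protein, so that fragments are cut and tagged there. Bmal1 (the product of Arntl) pairs with Clock and binds the E-box, Nr1d1 is a repressor that binds response elements in Arntl and other genes, and Dbp is a PAR bZIP activator that binds the D-box. Promoters of widely expressed mammalian genes are mostly CpG-rich and hold binding sites for general factors such as Sp1 and the ETS family.

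RNA was sequenced from wild-type submandibular glands of mice aged 6 to 8 weeks in 5 groups of 2 libraries. They were irradiated glands taken 6 h and 24 h after 5 Gy (IR), and unirradiated control glands collected at 3 zeitgeber times, ZT3, ZT9 and ZT15, which count hours from lights on. The 6 CUT&Tag samples, 2 each for Bmal1, Nr1d1 and Dbp, came from control glands dissociated with collagenase and trypsin; their labels give the target as the genotype, and name neither an antibody nor a control sample. The sex of the mice and the clock hour of irradiation are not given, and nothing says that replicates were separate animals, so p-values measure the spread between these samples, which may be technical.

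Levels are in FPKM, fragments scaled by transcript length and by library size. Of the acinar markers, Aqp5, the apical water channel, was at 134 to 541 FPKM in the RNA libraries and Bpifa2, Dcpp1 and Bhlha15 were above 0 in all. Prol1 was at 0 in IR 24 h replicate 1, Smr3a was at 0 in replicate 1 of ZT3 and of ZT9, and Muc19 was at 0.274 FPKM in ZT9 replicate 2. The parotid marker Amy1, a salivary amylase, ran from 12.8 to 19200 FPKM. Their total FPKM ran from 791786 to 1174465, and 19195 to 21781 genes were above 0. FPKM keeps no counts, so the depth is unknown. Transcripts of Y-linked genes were present in 5 of the 10 libraries, in 1 of the 2 at each time after IR, in 2 of 2 at ZT3, 0 of 2 at ZT9 and 1 of 2 at ZT15. ZT3 and ZT9 therefore differ in these transcripts as well as in time, and for those groups the 2 cannot be told apart. The ZT3 and IR files list genes in 1 order and the ZT9 and ZT15 files in another.

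The bases around the best ranked summits at promoters come first. They could be read only where they lay in a promoter window, which was so for 1692 of the 12221, and they say nothing of the class summits elsewhere. Each runs 50 bases to either side of the Bmal1 replicate 1 summit, on the strand of the gene, from the promoter windows of RefSeq (GRCm38.p6, the same coordinates as mm10), which hold 300 bases at each start. Capitals mark the E-box CACGTG, the GC box GGGCGG (Sp1 family) and the ETS core CCGGAA, on either strand. These are the 6 best ranked summits, by mean rank of the deposited score over the 3 lists, whose bases lay in a window of a named gene.
Baiap2l1 chr5:144358175-144358275, minus strand: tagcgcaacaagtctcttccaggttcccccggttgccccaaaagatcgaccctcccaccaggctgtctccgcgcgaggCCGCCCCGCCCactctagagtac
Adk chr14:21076017-21076117, plus strand: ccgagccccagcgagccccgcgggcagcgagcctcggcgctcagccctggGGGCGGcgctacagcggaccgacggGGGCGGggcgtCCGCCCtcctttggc
Prr11 chr11:87108855-87108955, minus strand: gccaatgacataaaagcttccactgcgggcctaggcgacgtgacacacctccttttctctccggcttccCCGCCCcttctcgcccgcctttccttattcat
Sec23a chr12:59012034-59012134, minus strand: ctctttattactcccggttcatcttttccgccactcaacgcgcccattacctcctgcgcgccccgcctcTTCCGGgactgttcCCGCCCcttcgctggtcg
Naa35 chr13:59585171-59585271, plus strand: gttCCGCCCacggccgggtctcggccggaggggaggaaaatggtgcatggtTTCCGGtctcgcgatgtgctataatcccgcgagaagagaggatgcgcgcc
Trim24 chr6:37870611-37870711, plus strand: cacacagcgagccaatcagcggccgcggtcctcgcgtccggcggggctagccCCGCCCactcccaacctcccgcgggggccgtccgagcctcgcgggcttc
All 6 held a GC box, 2 held the ETS core and none held the E-box. All 6 summits lay upstream of the start, at -191 to -67 bp, and this side was set by the windows. These lie mostly upstream of the start, so 50 bases to either side fit only for summits upstream of it. Of the 6 genes, Prr11 averaged 0.362 FPKM over the 10 libraries and the other 5 averaged 6.91 (Sec23a, a COPII coat protein) to 76.4 FPKM (Adk, adenosine kinase).

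The E-box was searched for in the same way, and 3 best ranked summits that held it are shown next. They were chosen for the motif, after the matches were seen.
Osbpl8 chr10:111164618-111164718, plus strand: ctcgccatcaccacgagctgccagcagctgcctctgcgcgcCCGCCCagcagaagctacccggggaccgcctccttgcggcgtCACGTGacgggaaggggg
Nup93 chr8:94214376-94214476, plus strand: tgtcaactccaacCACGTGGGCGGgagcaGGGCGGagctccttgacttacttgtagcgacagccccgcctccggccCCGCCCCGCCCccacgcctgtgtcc
Prrc2c chr1:162740623-162740723, minus strand: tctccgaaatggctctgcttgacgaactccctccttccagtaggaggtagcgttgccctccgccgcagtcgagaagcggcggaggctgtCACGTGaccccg
Their mean ranks ran from 2116 (Osbpl8) to 8213 (Prrc2c), against 325 (Baiap2l1) to 2060 (Trim24) for the 6 shown first. Baiap2l1 had the best ranked summit of the class, and Osbpl8 ranked close behind Trim24. In Nup93 the last base of the E-box is also the first of a GC box.

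Among clock genes, bases were at hand for Nfil3, a repressor at D-boxes, and for Clock. Clock had 2 class summits. The one shown lay at -121 bp from a start of Clock, and its nearest start was that of Gm7467, at 37 bp. The other lay at -325 bp from a Clock start and is not shown.
Nfil3 chr13:52981107-52981207, minus strand: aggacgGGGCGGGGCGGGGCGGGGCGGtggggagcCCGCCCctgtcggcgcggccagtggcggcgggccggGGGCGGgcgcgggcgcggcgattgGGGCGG
Clock chr5:76304863-76304963, minus strand: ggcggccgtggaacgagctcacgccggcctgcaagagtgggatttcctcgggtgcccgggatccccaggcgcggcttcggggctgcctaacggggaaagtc
Neither stretch held the E-box. Nfil3 held several GC boxes, some of them overlapping.

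Scores describe where the summits rank within each list, and were not tested because the lists made the selection. The median deposited score was 7.23 in the Bmal1 replicate 1 list, at percentile 46.4 of that list. It was 9.59 in Nr1d1 replicate 2 (percentile 58.6) and 9.08 in Dbp replicate 1 (percentile 59.5). Only 1.9% of the summits were in the top 10% of the Bmal1 list, and the median score in that list was 8.37 for all its other summits and 23.6 for the 1871 matched in all 6 lists. The matched summits were 46 bp away in Nr1d1 replicate 2 and 48 bp away in Dbp replicate 1 at the median. At the edge of the rule, the 188 members whose farther match fell in the last 10 bp of the limit had a median Bmal1 score of 6.6, and the 111 summits up to 10 bp outside it had 5.5.

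The steps of the rule show which list removed most. Of the Bmal1 replicate 1 summits, 24664 (79.6%) had a partner in Nr1d1 replicate 2, 24031 (77.6%) in Dbp replicate 1 and 21595 (69.7%) in both. Of those in both, 6516 had a match in Bmal1 replicate 2, 6030 in Dbp replicate 2 and 3074 in Nr1d1 replicate 1. The list lengths run the same way: 31014, 38363 and 49295 summits in Bmal1 replicate 1, Nr1d1 replicate 2 and Dbp replicate 1, against 19746, 9627 and 10352 in Bmal1 replicate 2, Nr1d1 replicate 1 and Dbp replicate 2. The selected summits are therefore tied to the length of the lists, and the part of list length in what follows was not tested. The share of Bmal1 replicate 1 summits in the class was 37.1% to 43.0% on chromosomes 1 to 19 and 50.2% (245 of 488) on X.

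Close to 3 in 10 of the summits lay at a gene start, which is the share found for the rest of the Bmal1 list. Off chromosome 18, for which no starts were used, 3533 of 11839 class summits (29.8%, Wilson 95% interval 29 to 30.7, counting error only) lay within 1 kb of a listed start. The share was 29.5% (28.9 to 30.2) for all other Bmal1 replicate 1 summits, 38.3% (36.1 to 40.6) for those in all 6 lists and 23.4% (22.0 to 24.9) for those in no other list. Within 250 bp of a start the shares were 23.5% for the class and 21.0% for all other summits. As the start table does not list every gene, the shares may be too low, and counting either end of every RefSeq protein-coding gene gave 36.3% for the class and 35.4% for all other summits. Neighbouring summits of a list are not replicates, so no test was made.

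With upstream counted as negative, the 10 best ranked summits included those at -113 bp from the start of Baiap2l1, -32 bp from Gm40097 and -85 bp from Adk. The one nearest Mup-ps16, a pseudogene, was at 1344 bp. The other 6 were at -17998 bp from Gm36684, 26652 bp from Gm34032, -39642 bp from Jmy, -100656 bp from Mrvi1, 105862 bp from Gm2808 and 236431 bp from 4930515L19Rik. High-ranked summits thus lay both at and far from starts.

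Summits near a start sat close to it. Of the 3533, 78.7% were within 250 bp, the median offset was -13 bp and 53.6% were upstream. Of them, 604 (17.1%) lay within 1 kb of 2 or more genes.

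**Figure D1:**
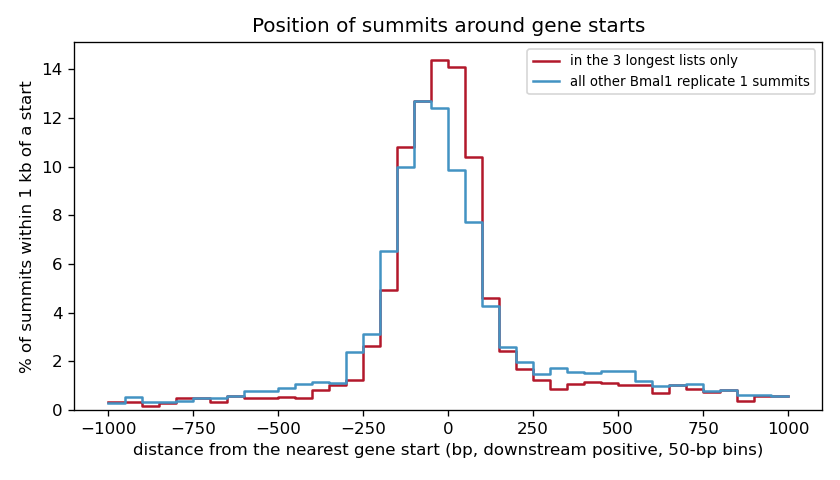
Share of summits (percent of those within 1 kb of a start, y axis) by distance from the nearest gene start in bp (x axis, 50-bp bins, downstream positive), for the class (red) and for all other Bmal1 replicate 1 summits (blue). Both peak within 100 bp of the start, and the class holds 14.4% in the bin just upstream and 14.1% in the bin just downstream.

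Many class summits lay far from any listed start, with 49.7% over 10 kb away. Of the 8306 beyond 1 kb, 4755 (57.2%) lay in the body of a protein-coding gene and 3551 outside. Of the 4706 in gene bodies that could be matched to the expression files, 87.1% were in a gene of at least 1 FPKM, against 59.9% of gene-body length in such genes. The same share was 87.6% for all other Bmal1 replicate 1 summits and 93.5% for those in all 6 lists.

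The genes at the class summits were mostly expressed. Of 26794 genes with a listed start, 20799 (77.6%) were matched to the files by symbol, and 3631 of these had a class summit within 1 kb of the start, 3314 protein-coding and 317 lncRNA. A mean FPKM of at least 1 was reached by 3168 of the 3631 (87.2%), 4028 of the 4614 with another Bmal1 replicate 1 summit only (87.3%) and 2833 of the 12554 with none (22.6%). Median levels were 9.85, 10.5 and 0.0191 FPKM in that order of classes. Among protein-coding genes the shares were 93.2%, 93.3% and 28.4%, and among lncRNA 25.2%, 29.7% and 4.75%. For genes with a summit in all 6 lists and no class summit it was 89.8%, and over all matched genes 48.2%. Of the 3631 class genes, 620 also had another Bmal1 replicate 1 summit. Of the 3011 without one, 2601 (86.4%) were expressed, with a median of 9.26 FPKM.

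The share held in every library. It was 85.7% to 87.4% for class genes over the 10 libraries (mean 86.6% ± 0.689, SD), 85.5% to 87.2% for genes with another summit, and 20.1% to 24.0% for genes with none. The lowest value for class genes is far above the highest for genes without a summit. Class genes and genes with another summit overlapped.

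**Figure D2:**
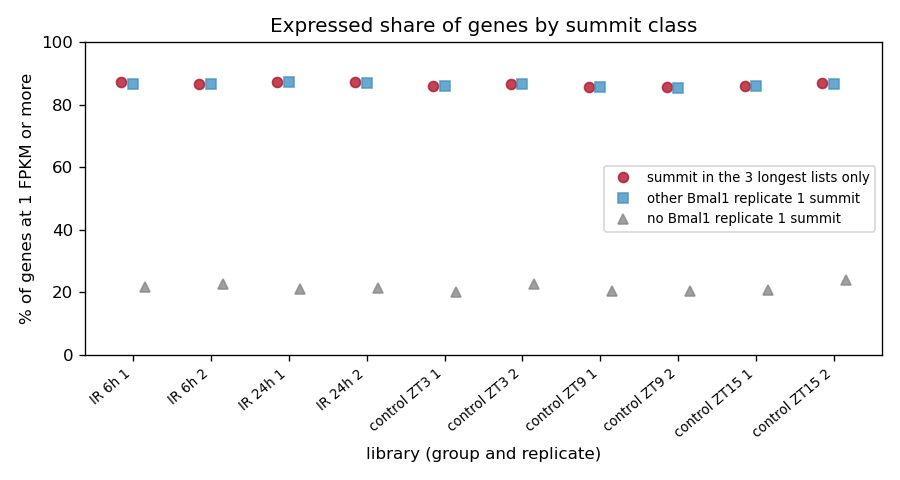
Percent of genes at 1 FPKM or more (y axis) in each library (x axis, IR 6 h, IR 24 h, then control ZT3, ZT9 and ZT15), for genes with a class summit (circles), another Bmal1 replicate 1 summit (squares) or none (triangles). Class genes lie at 85.7% to 87.4% and genes with no summit at 20.1% to 24.0%.

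Going the other way, the share of genes with a class summit went up with expression and then levelled. It was 1.08% of the genes listed at 0 FPKM in all libraries, 3.45% up to 0.1 FPKM, 11.2% from 0.1 to 1 FPKM, 19.5% from 1 to 3 FPKM, 31.5% from 3 to 10 FPKM, 36.3% from 10 to 30 FPKM, 36.0% from 30 to 100 FPKM and 34.9% above. Of all expressed genes 31.6% had a class summit, and of all matched genes 17.5%. The share with any other Bmal1 replicate 1 summit ran from 1.72% to 49.5% over the same bins.

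**Figure D3:**
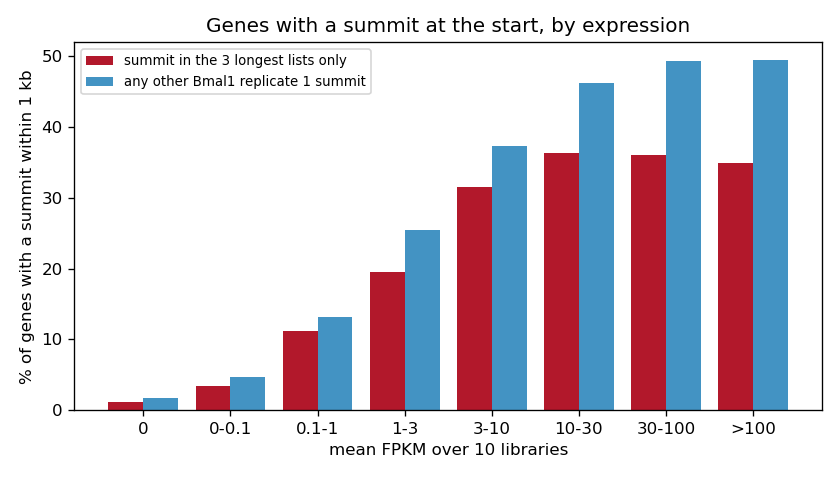
Percent of genes with a summit within 1 kb of the start (y axis) by mean FPKM over 10 libraries (x axis), for the class (red) and for any other Bmal1 replicate 1 summit (blue). The class share is 1.08% at 0 FPKM, reaches 36.3% at 10 to 30 FPKM and is 34.9% above 100 FPKM.

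The promoters carried many CpGs, and fewer of them held an E-box than promoters with another Bmal1 replicate 1 summit. Promoter windows with a class summit held a median of 24 CpG, as did windows with another Bmal1 replicate 1 summit, against 5 in windows with none. In expressed genes alone the medians were 24, 24 and 16. Within expressed genes, 3.81% of windows with 0 to 4 CpG and 24.9% of those with 20 to 29 CpG had a class summit. For genes under 1 FPKM the same shares were 0.191% and 10.0%. With 30 CpG or more they were 24.8% in expressed genes and 9.57% in genes under 1 FPKM. The E-box was in 7.64% of the windows with a class summit, in 18.2% with another summit, in 25.6% with a summit matched in Bmal1 replicate 2 and in 5.68% with none. Among expressed genes only, the shares were 7.93%, 17.6%, 24.9% and 7.37%. It was in 7.3% of the windows of every gene, near the share of the class. The rule left out every summit matched in Bmal1 replicate 2, so the class could hold none of those.

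Bases at the summit itself could be read only for summits in a promoter window and upstream of its start. These were 1692 of the class and 2443 of all other Bmal1 replicate 1 summits, and the shares hold for those alone. Within 50 bases of the summit, the E-box was in 51 of the 1692 class sequences (3.01%, interval 2.3 to 3.94) and 8.68% (7.63 to 9.86) of the 2443 others. It was in 12.2% (10.6 to 14.1) of the 1366 matched in Bmal1 replicate 2, in 6.61% (4.64 to 9.33) of the 439 in all 6 lists and in 10.5% (6.72 to 15.9) of the 172 in no other list. Within 50 bases of the middle of every window it was in 2.62%. The middles were not matched for base composition, with a median of 2 CpG against 9 at class summits. Class sequences had a GC box in 48.0% and the ETS core in 12.5%, against 47.0% and 11.4% for all other summits. The letters AGGTCA, the core of the element that Nr1d1 binds, was in 3.78% and 3.81%, and the D-box core TTATGNAA in 0.296% and 0.45%. At the window middles the GC box was in 19.2%, the ETS core in 5.09%, AGGTCA in 5.88% and the D-box core in 1.33%. A match of letters describes the sequence and is not a binding site.

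**Figure D4:**
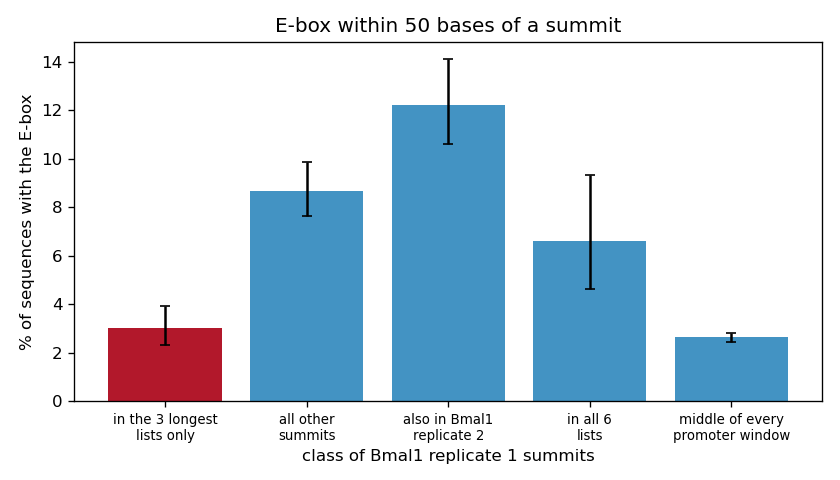
Percent of sequences with the E-box CACGTG on either strand (y axis) within 50 bases of a summit in a promoter window, by class of Bmal1 replicate 1 summits (x axis), with Wilson 95% intervals as bars. The class holds 3.01% and summits matched in Bmal1 replicate 2 hold 12.2%. The window middles, which are not matched for CpG content, hold 2.62%.

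Few clock genes were in the class. Among 14 core clock genes with a listed start and FPKM, only Clock had a class summit; Arntl, Nr1d1, Nr1d2, Per1 and Per3 each had another Bmal1 replicate 1 summit that matched all 6 lists. Of the 3 PAR bZIP genes and Nfil3, Dbp and Nfil3 had a class summit. Dbp and Tef also had another summit that matched all 6 lists, and Nfil3 had another that matched Bmal1 replicate 2. The class summit of Dbp lay at -991 bp, at the edge of the 1 kb window, with a score of 3.69 in the Bmal1 replicate 1 list. The nearest summit of a shorter list was 559 bp from it, and 469 bp from the class summit of Nfil3. Dbp had 86.8 and 95 FPKM at 6 h and 22.1 and 76.3 FPKM at 24 h after IR, against 3.88 to 281 FPKM in the 6 controls (median 20.3), and the groups overlapped. Clock had 2.93 and 3.14 FPKM at 6 h and 10.6 and 6.73 FPKM at 24 h, against 1.88 to 8.13 FPKM in controls (median 5.55). Nfil3 had 4.79 and 3.92 FPKM at 6 h and 4.38 and 3.64 FPKM at 24 h, against 6.77 to 29.5 FPKM in controls; the groups did not overlap, and the limma adjusted p was 0.24 at 6 h and 0.0712 at 24 h.

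The gene lists differ in how many members have a class summit, beside 31.6% of expressed genes and 17.5% of all genes. It was 8 of 17 genes of the p53 targets, 12 of 21 of the proteasome, 6 of 12 aminoacyl tRNA synthetases and 6 of 16 cytosolic ribosomal proteins. It was 2 of 15 nuclear respiratory chain genes, 2 of 15 of endoplasmic reticulum folding, 2 of 13 of the spliceosome and 2 of 10 for fluid and ion secretion. Acinar products gave 1 of 10 (Aqp5) and granular convoluted tubule genes 1 of 11 (Egf). Lists of lymphocyte, skeletal muscle and neuron genes gave 0 of 8, 0 of 8 and 0 of 7. Another Bmal1 replicate 1 summit only was at 10 of the 15 respiratory chain, 12 of the 15 folding and 9 of the 13 spliceosome genes. It was at 7 of the 17 p53 targets and 6 of the 21 proteasome genes. In the lymphocyte, skeletal muscle and neuron lists it was at 0, 0 and 1.

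The most abundant genes with a class summit included Klk1b11 and Egf, secreted by granular convoluted tubules, which differ most between libraries. Egf had 1734 and 64.3 FPKM at 6 h and 811 and 66.1 FPKM at 24 h, against 79.6 to 11262 FPKM in controls. Within controls it was 7722 and 11262 FPKM at ZT3 and 79.6 and 117 FPKM at ZT9, the times that differ in Y-linked transcripts. Klk1b11, a kallikrein whose near-identical paralogs may share its reads, averaged 3635 FPKM (SD 4829, n = 10). Rps15, Rplp0, Rpl19, Rps3a1, Rps18, Rpl13, Eef2, Rpl5, Rps6 and Rpl24, of the translation machinery, averaged 663 to 1036 FPKM. Ribosomal protein genes have processed copies, and their values are uncertain for that reason. In bulk tissue, fewer cells of a type and less RNA per cell cannot be told apart.

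Of the 3631 class genes, 3270 passed the filter of at least 1 FPKM in 2 libraries and were tested with limma among 15161 genes. After 6 h, 41 class genes (1.25%) were higher and 0 lower by limma (adjusted p under 0.05), beside 0.983% and 0.033% of all genes. At 6 h, 409 class genes (12.5%) and 1726 genes in all (11.4%) had an unadjusted p under 0.05. After 24 h, 194 class genes (5.93%) were higher and 11 (0.336%) lower, beside 5.05% and 0.501% of all genes. Both are near the share over all genes. The median log2 change at 24 h was 0.23 for class genes and 0.20 for all genes. With median-of-ratios scaling 23 class genes were higher and 11 lower at 24 h. Calls in either direction were then 1.04% of class genes and 0.864% of all genes. Genes with another Bmal1 replicate 1 summit had 1.02% higher at 6 h and 5.81% higher at 24 h. Both comparisons share the 6 control libraries.

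Class genes of the p53 pathway rose after IR. p53 is a DNA damage-activated factor whose targets stop the cell cycle, trigger death or limit p53 itself. Of the 8 with a class summit, 7 rose at 6 h and 6 at 24 h, and none fell, beside 0.983% and 5.05% of all genes called higher; of the 9 without one, 8 rose at each time. The list was chosen with results of these data known.

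Cdkn1a, a cyclin-dependent kinase inhibitor, had 71.9 and 70.8 FPKM at 6 h and 57.7 and 52.9 FPKM at 24 h, against 0.843 to 2.43 FPKM in the 6 controls (median 1.97). No IR library overlapped the controls. The log2 change on the log2(FPKM + 1) scale was 4.75 at 6 h (SE 0.21, limma adjusted p = 8.54e-05) and 4.39 at 24 h (adjusted p = 0.000194). Mdm2, the ubiquitin ligase that degrades p53, had 71.2 and 63.1 FPKM at 6 h and 63.7 and 60.7 FPKM at 24 h, against 11.5 to 25.4 FPKM (median 17.8). Its log2 changes were 1.87 (limma adjusted p = 0.00332) and 1.76 (adjusted p = 0.00541), and each was lost without either IR library of its time.

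Eda2r, a death receptor of the TNF receptor family, had 29.8 and 26.1 FPKM at 6 h and 22.2 and 27.7 FPKM at 24 h, against 0.859 to 2.42 FPKM in controls. Polk, a DNA polymerase that copies past lesions, had 18 and 16.2 FPKM at 6 h and 18 and 15.9 FPKM at 24 h, against 1.7 to 3.55 FPKM. Both passed the test at each time. Plk2, a polo-like kinase, had 18.2 and 17.8 FPKM at 6 h and 7.16 and 8.19 FPKM at 24 h, against 2.75 to 4.73 FPKM. Ei24 had 142 and 121 FPKM at 6 h and 110 and 114 FPKM at 24 h, against 43.4 to 54.4 FPKM. Both rose at each time; the 6 h call of Ei24 was lost without IR 6 h replicate 1, and the 24 h call of each was lost without either 24 h library, and that of Plk2 also with median-of-ratios scaling.

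Sesn2, a stress-induced inhibitor of mTORC1, had 24.8 and 18.9 FPKM at 6 h and 9.57 and 10.5 FPKM at 24 h, against 1.84 to 10.1 FPKM. It passed at 6 h (adjusted p = 0.0184, limma) and not at 24 h (adjusted p = 0.0504). Fas, the death receptor, had 6.97 and 9.92 FPKM at 6 h and 8.43 and 5.58 FPKM at 24 h, against 1.11 to 6.89 FPKM, and passed at neither time. The difference between 24 h and 6 h was tested for every gene: 0 class genes and 0.0198% of all genes (3 genes) were called by limma, and no other tool was run. An unadjusted p under 0.05 was found for 702 class genes (21.5%) and 2940 genes in all (19.4%).

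**Figure D5:**
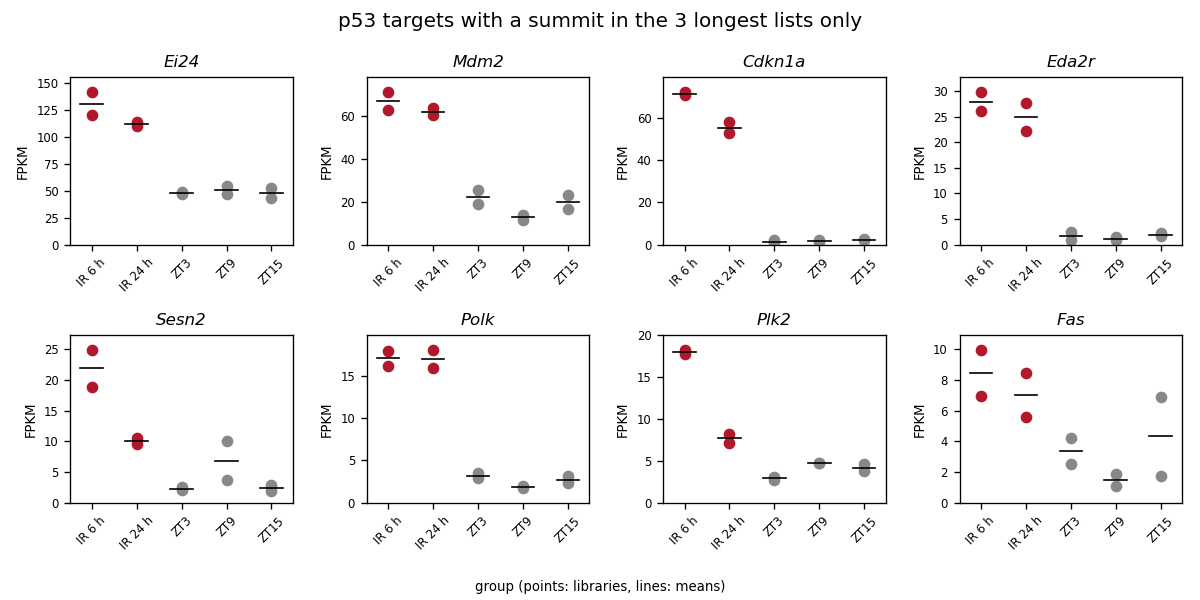
FPKM (y axis, from 0) of the 8 p53 target genes with a class summit, by group (x axis, IR 6 h and IR 24 h in red, control ZT3, ZT9 and ZT15 in grey), each point 1 library and each line the mean of 2. Cdkn1a lies at 52.9 to 71.9 FPKM after IR and at or under 2.43 FPKM in controls.

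Other class genes also rose. Ephx1, a microsomal epoxide hydrolase, had 353 and 334 FPKM at 6 h and 260 and 390 FPKM at 24 h, against 37.9 to 86.0 FPKM in controls, with log2 changes of 2.51 (limma adjusted p = 0.000688) and 2.40 (adjusted p = 0.00122). Tmem44 had 25.9 and 22.5 FPKM at 6 h and 22.6 and 33.2 FPKM at 24 h, against 3.06 to 8.46 FPKM. Ddit4l, an inhibitor of mTORC1, had 13.6 and 11.8 FPKM at 6 h and 5.77 and 12.1 FPKM at 24 h, against 0.182 to 2.87 FPKM. Noxo1, an organiser of NADPH oxidase, had 36.6 and 44.5 FPKM at 6 h, against 4.77 to 16.0 FPKM. Its call (limma adjusted p = 0.0488) was lost with a pseudocount of 0.1, with no filter, with either other scaling and against ZT9 alone. The 6 h calls of Sesn2, Ddit4l and Tmem44 were also lost against ZT9 alone. Among genes named at 24 h, Dglucy had 38.0 and 53.4 FPKM against 6.69 to 9.68 FPKM, and Exoc4, a subunit of the exocyst, had 77.8 and 99.8 FPKM against 10.0 to 25.6 FPKM. Against ZT3 alone, the 24 h calls of Exoc4 and Ddit4l were lost. The 24 h call of Ddit4l was also lost with either other scaling, and its call at each time with no filter. The calls of Tmem44 and Ddit4l at each time, Noxo1 and Sesn2 at 6 h and Exoc4 at 24 h were lost without either IR library of that time.

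At 24 h, 11 class genes fell, and 8 of them are described here. Psat1, of serine synthesis, had 4.09 and 4.17 FPKM at 24 h, against 7.45 to 70.5 FPKM in controls (median 35.8). Slc6a9, a glycine transporter, had 3.27 and 3.2 FPKM against 7.23 to 24.4 FPKM, and Slc7a1, a carrier of cationic amino acids, had 3.48 and 4.09 FPKM against 5.91 to 17.9 FPKM. Slc3a2, the heavy chain of amino acid exchangers, had 52.3 and 47.3 FPKM against 57.3 to 216 FPKM. None of the 4 overlapped the controls, which the choice of named falls required.

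Aars, which charges alanine tRNA, had 13.4 and 12 FPKM against 21.8 to 59.1 FPKM, and Mars1, for methionine, had 19.7 and 16.1 FPKM against 25.6 to 59.3 FPKM. Of the 6 tRNA synthetases of the list with a class summit, 2 fell at 24 h (Aars and Gars) and 0 rose, beside 0.501% of all genes that fell; of the 6 without one, 2 fell as well. The Gars call (limma adjusted p = 0.0402) was lost with the Y-linked term, against ZT3 alone and without either 24 h library. Agt, angiotensinogen, had 9.09 and 15.2 FPKM against 40.2 to 155 FPKM, and its log2 change was -2.69 (limma adjusted p = 0.00551). Pold2, a subunit of DNA polymerase delta, had 7.73 and 7.69 FPKM against 13.6 to 19.1 FPKM. Against ZT3 alone, the log2 changes of the 8 were smaller in size for all but Pold2. That of Slc3a2 went from -1.086 to -0.33 and that of Psat1 from -2.437 to -1.053, while that of Pold2 went from -0.963 to -0.978. With the Y-linked term, the calls of Slc3a2, Slc7a1 and Pold2 were lost. None of the 8 was called against ZT3 alone, where the comparison has 2 control libraries, or without IR 24 h replicate 1.

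Of the 6 ribosomal protein genes in the class, 3 rose at 24 h, beside 5.05% of all genes, and 3 of the 10 without a class summit also rose; the median log2 changes were 0.81 and 0.84. Rpl5 had 1183 and 1166 FPKM against 469 to 730 FPKM in controls, and Rps6 had 1069 and 1111 FPKM against 483 to 709 FPKM; neither was called with median-of-ratios scaling. Of the 12 proteasome genes in the class 1 rose, and of the 9 without a class summit 1 rose. The class gene was Psma6, with 169 and 155 FPKM against 89.2 to 124 FPKM, and this call too was lost with that scaling. At 6 h, 0 of the 12 and 0 of the 6 passed (limma).

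Markers of other cells varied between libraries. The summed FPKM of 13 T and B lymphocyte genes was 9.63 to 61.8 at 6 h and 5.45 to 10.1 at 24 h, against 13.4 to 462 in controls. The summed FPKM of 12 granular convoluted tubule genes was 1505 to 15616 at 6 h and 867 to 16335 at 24 h, against 793 to 102177 in controls. Their part in the changes of class genes was not tested. With the presence of Y-linked transcripts as a term, 26 class genes (0.795%) were called at 6 h and 43 (1.31%) at 24 h. The shares over all genes were 0.627% and 1.04%.

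Across the control times no class gene passed the test. Over ZT3, ZT9 and ZT15, 0 of 3270 class genes were called by limma's F test, against 0.0198% of all genes (3 genes); 435 class genes (13.3%) and 1986 genes in all (13.1%) had an unadjusted p under 0.05. Among those with the smallest p, Dbp had 8.55 and 3.88 FPKM at ZT3, 281 and 115 FPKM at ZT9 and 12.5 and 28.1 FPKM at ZT15 (adjusted p = 0.18). Usp2, a deubiquitinase, had 7.83 and 5.89 FPKM at ZT3, 34.7 and 28.6 FPKM at ZT9 and 22.5 and 19.5 FPKM at ZT15 (limma adjusted p = 0.18). Phyh, of peroxisomal fatty acid oxidation, had 66.9 and 67.3 FPKM at ZT3, 313 and 188 FPKM at ZT9 and 150 and 117 FPKM at ZT15. In these 3 the ZT9 libraries were highest.

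Of the 8 with the smallest p, Slc28a3, Snap23, Ermp1 and Airn were highest at ZT3. Slc28a3, a nucleoside transporter with the smallest p of all class genes (limma adjusted p = 0.0986), had 4.67 and 5.25 FPKM at ZT3, 0.699 and 0.41 FPKM at ZT9 and 1.16 and 0.738 FPKM at ZT15. Snap23, a SNARE protein of exocytosis, had 49 and 44.4 FPKM at ZT3, 18 and 17.9 FPKM at ZT9 and 21.9 and 23.8 FPKM at ZT15. Ermp1, a metallopeptidase of the endoplasmic reticulum, had 23.6 and 29.5 FPKM at ZT3, 8.7 and 12.1 FPKM at ZT9 and 14.1 and 13.3 FPKM at ZT15. Airn, a noncoding RNA antisense to Igf2r, had 13.5 and 13.9 FPKM at ZT3, 7.79 and 8.27 FPKM at ZT9 and 7.3 and 7.9 FPKM at ZT15; reads of the 2 genes cannot be told apart without strand. Gstm7, a glutathione transferase with close paralogs, was highest at ZT9. It had 2.45 and 1.88 FPKM at ZT3, 5.13 and 2.54 FPKM at ZT9 and 0.406 and 0.512 FPKM at ZT15. Both ZT3 libraries and neither ZT9 library held Y-linked transcripts, so the time and that difference cannot be told apart here. With the Y-linked term, 0 class genes and 0 genes in all were called across control times.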

How the data were processed

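Expression was deposited by the authors as FPKM per gene, and CUT&Tag as 1-bp summits with a deposited score of unstated scale, used here only to rank summits within a list. HISAT2, SAMtools, Cufflinks, Bowtie2 and mm10 appear in the submitters' processing notes with neither roles nor versions. The peak caller is not given in the sources used here. Symbols that occurred more than once (217 of 55398 entries) were left out, leaving 55181. Summits were matched within 200 bp. Starts and bases came from RefSeq tables of GRCm38.p6, which give none for chromosome 18, and start distances used a 1 kb window. A gene was called expressed at a mean of at least 1 FPKM. The level of 1 marker gene is not reported here.

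limma 3.58.1 in R 4.3.3, with trend, was fitted to log2(FPKM + 1) of the 15161 genes at 1 FPKM or more in at least 2 libraries, with 5 group means and 5 residual degrees of freedom. Each IR time was compared with the mean of the 3 control times. Two-sided p-values were adjusted by Benjamini-Hochberg over all kept genes. Fold changes on this scale understate those of low genes. The fit and the matching were tested on simulated data. Summit members and gene lists were chosen with earlier results of these data known.

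Named genes were the 12 most abundant with a class summit, clock genes with one, up to 8 rises and 8 falls per comparison (at least 5 FPKM, no overlap), the 8 smallest p across control times and up to 4 per list. All 8 p53 targets are given, beyond that limit, and sequences beyond the 10 best ranked summits were added after values were seen. Alternatives were match distances of 100 and 500 bp, start windows, expression limits, pseudocounts, filters, scalings, a replicate block and libraries left out.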

Additional observations from a re-analysis of the deposited data

How the results depend on the processing

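Keeping only summits above the median deposited score of each of the 3 lists left 3670 summits, of which 37.0% were near a start; other match distances stayed within 1.5 times of 12221, and 500 bp gave 31.0% near a start. Leaving out 1 of the 3 shorter lists gave 12546 to 14595 summits. The share near a start was 23.5% within 250 bp, 33.0% within 2 kb, 27.1% for protein-coding starts only and 36.3% for either end of every protein-coding gene (chosen after seeing the data). The expressed share was 89.5% with a 250 bp window, 85.9% with 2 kb, 95.8% at 0.1 FPKM and 68.2% at 5 FPKM, and 87.0% to 87.4% without any 1 library. The median level, 3.40 on the log2(FPKM + 1) scale, was 3.27 with a pseudocount of 0.1 and 3.38 to 3.42 without any 1 library.

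Calls depended on the fit, and the shares called of class genes and of all genes moved together. With median-of-ratios scaling they were 0.734% and 0.627% at 6 h, and 1.04% and 0.864% at 24 h. With quantile normalization they were 0.826% and 0.699%, then 1.1% and 0.877%. With the Y-linked term they were 0.795% and 0.627%, then 1.31% and 1.04%. Against ZT9 alone they were 0.581% and 0.514% at 6 h. At 24 h they were 0.703% and 0.495% against ZT3 alone, and 3.47% and 2.18% with no filter. Of class genes, 41 were called at 6 h: 24 with median-of-ratios scaling, 27 with quantile normalization, 26 with a Y-linked term (chosen after seeing the data), 19 against ZT9 alone, and 5 to 42 without any 1 library, lowest without IR 6 h replicate 1. At 24 h 205 were called: 124 with no filter, 34 with median-of-ratios scaling, 36 with quantile normalization, 43 with the Y-linked term, 23 against ZT3 alone, and 6 to 323 without any 1 library, lowest without either IR 24 h library (6 each) and highest without ZT9 replicate 2. Across control times 1 was called with no filter and 0 to 1 without any 1 library. None of the genes named and called changed direction under these settings, which were not run for single genes that were not called. Of the 24 genes named and called at 24 h, 18 were still called with median-of-ratios scaling and 5 without IR 24 h replicate 1; of 11 at 6 h, 10 and 5 (without IR 6 h replicate 1).

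Same-numbered libraries did not all deviate together (correlations -0.141 to 0.473), so the numbers were not taken to pair them. With a replicate block, 29 class genes (0.887%) were called at 6 h, 150 (4.59%) at 24 h and 0 across control times. The shares over all genes were 0.752%, 3.94% and 0.0132%. Noxo1 at 6 h (limma adjusted p = 0.0794) and Gars at 24 h (adjusted p = 0.0516) lost their calls. The cause of these shifts was not tested.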
